A study of Mus musculus with 6 samples.

Results

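The genes described here are the core of the insulin signalling pathway in pancreatic islets: the insulin receptor gene Insr, the docking protein genes Irs1 and Irs2, the phosphoinositide 3-kinase (PI3K) genes Pik3r1 and Pik3ca, the kinase genes Akt1 and Akt2, the transcription factor gene Foxo1 and the adaptor gene Grb10. They were chosen by gene symbol: every probe set of the deposited table whose platform annotation names 1 of these 9 genes alone was taken, which gave 29 probe sets of 45037. A probe set is a group of short array probes read out together for a transcript, and each gene had between 1 and 6 of them.

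RNA came from islets of Langerhans of 6 mice aged 8 weeks, on a mixed SV 129/C57BL/6 background, and each of 6 Affymetrix arrays carried the RNA of a different animal. The 3 arrays labelled knockout came from Pdx1Cre;PPARbetafl/fl mice, in which Cre recombinase under the Pdx1 promoter, active across the developing pancreas, acts on floxed Ppard alleles. The 3 control arrays came from littermates of genotype PPARbetafl/fl, which carry the floxed alleles but not the Cre transgene. There were 0 arrays from mice with Cre and intact Ppard, so the deletion and the Cre transgene cannot be told apart in any difference below.

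Insulin binding switches on the receptor's tyrosine kinase, which phosphorylates the IRS proteins. These recruit PI3K, made of a regulatory and a catalytic subunit, and the lipid it produces brings AKT kinases to the membrane, where they are activated. Active AKT phosphorylates FOXO1 and thereby keeps it out of the nucleus, while GRB10 binds the receptor and dampens its signal. In beta cells this pathway is known for its part in beta cell growth and survival, with IRS2 as the docking protein most closely tied to beta cell mass.

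The values are log2 expression values made by the authors with RMA, so a difference of 1 is a 2-fold change. Differences are arrays labelled knockout minus control, with limma's moderated standard error (SE), and an adjusted p (Benjamini-Hochberg over all 45037 probe sets) under 0.05 counted as a call. Array medians lay between 5.39 and 5.49. The targeted gene Ppard did not read lower where the label was knockout: its brighter probe set read 7.75, 7.56 and 7.12 in control arrays 1 to 3, against 8.01, 8.20 and 7.70 in the arrays labelled knockout (difference 0.49 ± 0.20, adjusted p = 0.377). The labels name no deleted exon, so whether these probes lie in the deleted stretch is not known here, and the genotypes rest on the labels. The labels call the material beta-cells and the protocol describes islets. Beta cell markers were present, with a mean over 16 genes of 11.32 in controls against 11.11 in those labelled knockout. Of these 16 genes 11 had lower means there, and 1, the zinc transporter gene Slc30a8, fell by 0.82 (SE 0.12, adjusted p = 0.0394). The hormone genes of alpha and delta cells were present too, with Gcg between 13.75 and 13.98 and Sst between 12.78 and 13.54 over the arrays. Of 5 alpha cell markers 5 had lower means in the arrays labelled knockout and 0 passed, and of 8 delta, PP and epsilon cell markers 2 fell. Of 10 duct markers 1, Cftr, rose, although 8 of the 10 had lower means (median difference -0.22). Of 24 immune markers 1 rose, with 18 higher and 6 lower means. Over all 18193 genes 155 rose and 45 fell, or 1.10% together, and the part of these cells in the results was not tested. Such bulk RNA cannot tell fewer cells of a type from less RNA per cell. Exocrine RNA differed between preparations: the mean of 27 acinar markers, with 25 of the 27 lower in the arrays labelled knockout, was 6.70, 10.72 and 10.88 in control arrays 1 to 3, against 8.38, 5.65 and 5.77 in the 3 arrays labelled knockout (two-sided p = 0.2 by exact permutation, for which 0.1 is the smallest value possible with 3 arrays a group); the part of acinar RNA in the results was not tested beyond the fits with these marker values as a covariate.

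No insulin pathway member passed the test. Of the 29 probe sets 0 were called by limma, against 0.897% of all probe sets (0.713% called higher and 0.184% called lower), and 0 were called in the 13 alternative fits of all 29, the moderated test with an intensity trend and robust variance included. In the other 2, which took 1 value per gene, 0 of 9 were called. At an unadjusted p under 0.05 there were 3 of 29, or 10.3%, against 12.9% of all probe sets. The groups did not overlap, with the arrays labelled knockout higher, in 5 of 29 (17.2%), against 10.1% of all probe sets. They did not overlap with those arrays lower in 1 of 29 (3.45%), against 8.85%. Over both directions the members' share of 20.7% lies near the sum for all probe sets, and 2 of the 6 belong to Akt1. The 95% interval of the difference stayed within a 2-fold change in either direction for all 29 probe sets, with the lowest bound at -0.90 (Irs2) and the highest at 0.99 (Pik3ca 1429434_at). The same held for 88.2% of all probe sets. To be called, a member would have had to differ by 0.65 to 2.43, depending on its spread, with a median of 0.96. These sizes needed for a call hold for an observed difference at its observed error, not for the true change.

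**Figure D1:**
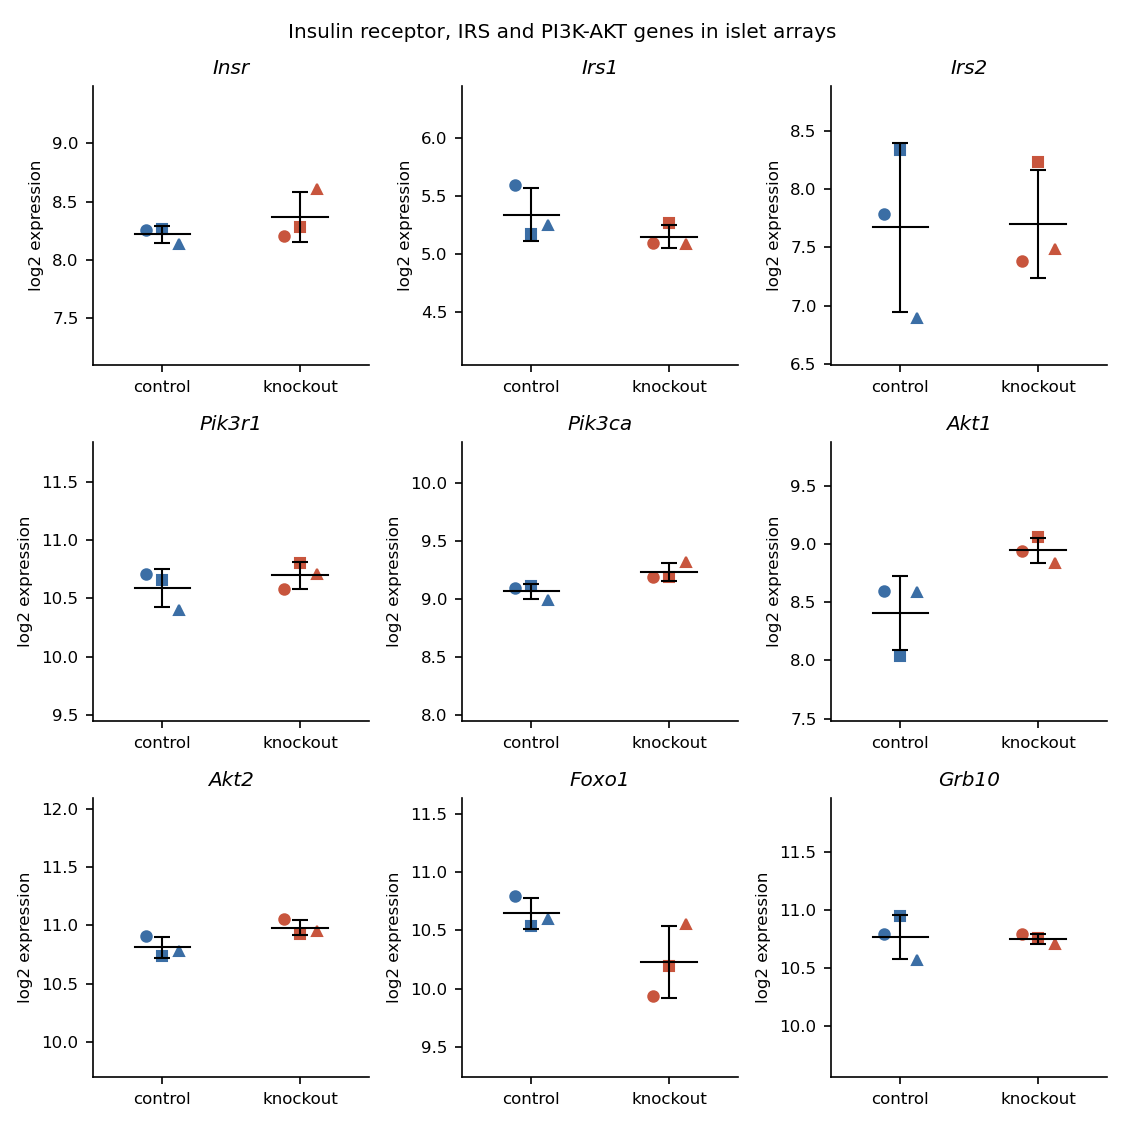
Log2 expression of the 9 genes in each array, on the probe set with the highest mean for each gene; blue marks are control arrays, red marks are arrays labelled knockout, and circles, squares and triangles are arrays 1, 2 and 3 of each group. Black lines are means and bars are SD (n = 3), every panel spans 2.4 log2 units, and the groups separate without overlap for Akt1, Pik3ca and Akt2, while Irs2 has the widest spread.

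The promoter sequences of Akt1, Foxo1 and Irs2 are shown because these are the members whose values are described most closely below: Akt1 and Foxo1 have the smallest p of the 9 genes, and Irs2 varies most between arrays. The sequences are RefSeq's, build GRCm38.p6, and give the 250 bases before the annotated start, 5′ to 3′ on the strand of the gene. Capitals mark letters that match a searched motif. Akt1 lies on the minus strand at chr12:112674885-112675134, Foxo1 on the plus strand at chr3:52268087-52268336, and Irs2 on the minus strand at chr8:11008930-11009179.
Akt1: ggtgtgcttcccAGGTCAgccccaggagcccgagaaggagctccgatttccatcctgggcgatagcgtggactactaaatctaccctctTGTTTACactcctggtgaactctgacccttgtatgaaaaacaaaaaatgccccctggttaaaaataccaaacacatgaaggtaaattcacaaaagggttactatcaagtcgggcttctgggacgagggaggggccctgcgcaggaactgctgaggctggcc
Foxo1: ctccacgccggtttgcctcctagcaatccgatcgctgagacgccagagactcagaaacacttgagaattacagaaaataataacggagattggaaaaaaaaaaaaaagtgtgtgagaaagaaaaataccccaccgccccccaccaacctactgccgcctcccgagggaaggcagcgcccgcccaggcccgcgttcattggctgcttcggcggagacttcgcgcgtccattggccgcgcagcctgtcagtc
Irs2: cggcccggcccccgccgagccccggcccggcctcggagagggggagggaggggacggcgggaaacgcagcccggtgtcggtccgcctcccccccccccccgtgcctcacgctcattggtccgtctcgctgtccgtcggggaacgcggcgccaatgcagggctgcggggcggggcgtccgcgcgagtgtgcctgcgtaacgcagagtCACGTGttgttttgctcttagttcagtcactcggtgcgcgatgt

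Of the 9 genes 8 had promoter windows in the RefSeq table, 14 windows in all, and each 300-base window (250 bases before to 50 after the start) was searched on both strands. The motifs were the FOXO element GTAAACA, the cyclic AMP response element TGACGTCA and its half-site TGACG, the PPAR element (2 copies of AGGTCA in the same direction, 1 base apart) and its half-site AGGTCA, and the E-box CACGTG. Each half-site also lies within its full element. Akt1 held the FOXO letters on the reverse strand (as TGTTTAC) with the first base at -161 from the start, letters present in 3.65% of all promoter windows, and AGGTCA at -238, present in 16.3%. Irs2 held an E-box at -44 and Irs1 held one at -115, letters present in 7.15% of all windows. The half-site TGACG stood in windows of Irs1, Pik3r1, Akt2 and Grb10 (20.8% of all windows). These shares count single windows, while a gene here can have more than 1 window. Neither TGACGTCA (1.79% of all windows) nor the full PPAR element (0.0396%) stood in any of the 14 windows, which says only that these letters are not in these windows. A match is a description of the letters and not a sign of binding.

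Among the receptor and its docking proteins, Insr was close between groups. Its probe set 1421380_at read 8.26, 8.26 and 8.13 in control arrays 1 to 3, against 8.21, 8.29 and 8.61 in the arrays labelled knockout. The groups overlapped, and only knockout 3 stood above the others. The difference was 0.15 ± 0.14 (SE, adjusted p = 0.706), or 1.11-fold, with a 95% interval from -0.17 to 0.47. The other probe sets of Insr differed by 0.26 ± 0.13 (1434446_at, adjusted p = 0.467) and 0.22 ± 0.12 (1450225_at, adjusted p = 0.493). On 1450225_at the groups did not overlap, although control 1 (7.68) and knockout 3 (7.70) nearly touched. It read 7.68, 7.60 and 7.43 in controls and 7.77, 7.89 and 7.70 in the arrays labelled knockout. Without knockout 3 the difference on 1421380_at was 0.027, and with the acinar marker mean of each array in the model it was 0.045. All 3 probe sets had higher means in the arrays labelled knockout and kept that sign in the alternative fits run on them, but 2 of them are annotated to the same sequence record and are not independent readings.

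Irs1, the docking protein known mainly from muscle and fat, was dim on its single probe set, with a mean below the median of all probe sets. It read 5.60, 5.17 and 5.25 in controls and 5.10, 5.26 and 5.09 in the arrays labelled knockout. Control 1 stood above the other 5 arrays, which lay close together. The difference was -0.19 ± 0.14 (adjusted p = 0.638), and it was -0.062 without control 1, -0.40 ± 0.15 with the acinar marker mean in the model (adjusted p = 0.490) and -0.45 with control 1 as the sole control (adjusted p = 0.357).

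Irs2 varied more between animals of a group than any other member. Its single probe set has no sequence record in the platform annotation, so the target of that probe set could not be checked here. It read 7.79, 8.34 and 6.89 in control arrays 1 to 3, against 7.38, 8.24 and 7.49 in the 3 arrays labelled knockout. Control 2 and knockout 2 were highest in their groups, control 3 was lowest of all, and the groups overlapped fully. The means were 7.67 ± 0.73 and 7.70 ± 0.47 (SD, n = 3), a difference of 0.031 ± 0.39 (SE, adjusted p = 0.985). Only 2.64% of all probe sets had a larger within-group SD. With this spread an observed difference under 2.43, or 5.41-fold, would not have been called, and the sign of the difference turned in 5 of 15 alternative fits, from -0.36 without control 3 to 0.36 without control 2.

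Irs2 is a known target of the transcription factor CREB, which is activated by cyclic AMP. The list of 13 other CREB target genes measured here had means of 7.53, 8.36 and 7.37 in control arrays 1 to 3, against 7.94, 8.47 and 7.65 in the 3 arrays labelled knockout. As for Irs2, control 2 and knockout 2 were highest in their groups and control 3 was lowest. Arrays 2 were highest in both groups for 9 of these 13 genes, among them the early-response genes Fos and Nr4a1, against 8.12% of all 18193 genes. Fos, part of the AP-1 transcription factor, read 8.56, 9.88 and 7.77 in controls and 8.53, 9.46 and 8.56 in the arrays labelled knockout. Nr4a1, an orphan nuclear receptor gene, read 5.56, 7.60 and 4.80 in controls and 6.52, 7.23 and 5.14 in the arrays labelled knockout. This array order, and these 2 genes, were singled out after their values were seen, and the part of early-response RNA in the spread of Irs2 was not tested. Between the groups 0 of the 13 genes passed with limma (0 at an unadjusted p under 0.05, median difference 0.23). The smallest p belonged to Ppargc1a, a coactivator gene of mitochondrial metabolism (-0.50 ± 0.21, adjusted p = 0.391), which was dim, with a mean of 4.15. Its other probe sets were dimmer still and differed by -0.80, -0.91, -0.83 and -0.15. The groups did not overlap on 1434099_at (adjusted p = 0.169) and 1434100_x_at (adjusted p = 0.108). Nr4a3 differed by 1.03 ± 0.46 (adjusted p = 0.412), although its other probe sets differed by -0.050 and 0.066, and Crem, a CREB family repressor and activator gene, by 0.51 ± 0.27 (adjusted p = 0.485), with its other probe sets at 0.80, 0.29 and -0.40.

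**Figure D2:**
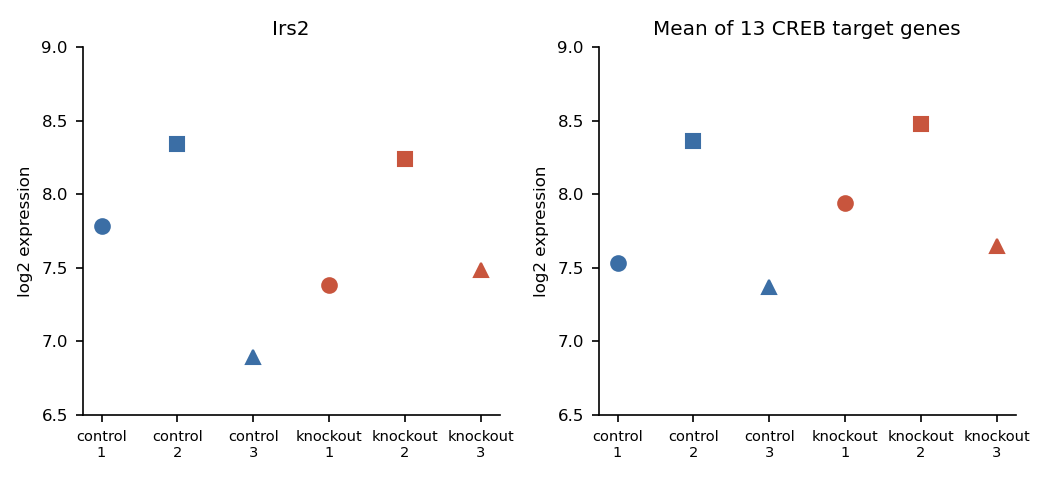
Log2 expression of Irs2 (left) and the mean log2 expression of 13 CREB target genes (right) in each array; blue marks are controls, red marks are arrays labelled knockout, and circles, squares and triangles are arrays 1, 2 and 3. Control 2 and knockout 2 are the highest arrays of their groups in both panels, and control 3 is the lowest array in both.

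The PI3K subunit genes Pik3r1 and Pik3ca had slightly higher means in the arrays labelled knockout on 9 of 10 probe sets, and 0 passed. Pik3r1, which encodes a regulatory subunit, read 10.71, 10.66 and 10.40 in controls and 10.58, 10.81 and 10.71 in the arrays labelled knockout on 1438682_at. The groups overlapped, with control 3 lowest. Its difference was 0.11 ± 0.13 (adjusted p = 0.778) and its other 3 probe sets, all annotated to the same sequence record, differed by 0.20 to 0.21 (adjusted p = 0.524 to 0.737). With the acinar marker mean of each array in the model, 3 of the 4 Pik3r1 probe sets changed sign, to -0.036 on 1438682_at, so the direction was not stable.

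Pik3ca, the catalytic subunit gene, read 9.09, 9.11 and 8.99 in controls and 9.19, 9.19 and 9.32 in the arrays labelled knockout on 1460326_at. The groups did not overlap, though the gap between control 2 and knockout 1 was small. The difference was 0.16 ± 0.10 (adjusted p = 0.563), or 1.12-fold, and it stayed positive in 15 of 15 alternative fits, between 0.11 and 0.22. Of the 6 Pik3ca probe sets 5 had higher means in the arrays labelled knockout, by 0.16 to 0.47. Of these 5, 2 share a sequence record and 3 share another, so they are not independent readings. The dimmest, 1440054_at from a further record and with a mean of 4.05, differed by -0.33 ± 0.22 (adjusted p = 0.590). The 2 with the largest differences, 1429435_x_at (0.47 ± 0.22, adjusted p = 0.441) and 1429434_at (0.42 ± 0.24, adjusted p = 0.520), come from the same sequence record, and against control 1 alone they differed by 0.039 and -0.096. That fit leaves out controls 2 and 3, in which the acinar markers were brightest.

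Akt1 had the largest difference of the 9 genes on the brightest probe set of each, although Foxo1 differed more without control 2, with the acinar marker mean in the model, with control 1 as the sole control and with all probe sets of a gene averaged. On 1416657_at it read 8.60, 8.04 and 8.58 in control arrays 1 to 3, against 8.94, 9.06 and 8.84 in the 3 arrays labelled knockout. The groups did not overlap, and control 2 stood apart below the other controls. The means were 8.41 ± 0.32 and 8.94 ± 0.11 (SD, n = 3), a gap of 0.54 ± 0.18 (SE), or 1.45-fold, with an unadjusted p of 0.0184 and an adjusted p = 0.271. It was 0.35 without control 2 (adjusted p = 0.372), over 1.5 times smaller, and 0.40 ± 0.23 with the acinar marker mean in the model (adjusted p = 0.674).

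The second Akt1 probe set, 1425711_a_at, read 8.34, 8.20 and 8.25 in controls and 8.48, 8.67 and 8.59 in the arrays labelled knockout. Here too the groups did not overlap, and control 2 did not stand apart. The difference was 0.32 ± 0.11 (adjusted p = 0.285), and the lowest adjusted p it reached in any alternative fit was 0.200. The remaining Akt1 probe sets lay near the median brightness of the arrays: 1440950_at differed by -0.0087 ± 0.17, turning to 0.044 after median centring, and 1442759_at by -0.14 ± 0.22. With all 4 probe sets averaged, Akt1 differed by 0.18 ± 0.12 (adjusted p = 0.556, a setting chosen after seeing the data), and against control 1 alone 1416657_at differed by 0.34 (adjusted p = 0.465).

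Akt2, the isoform best known for glucose uptake in muscle and fat, differed less. On 1421324_a_at it read 10.91, 10.74 and 10.78 in controls and 11.05, 10.93 and 10.95 in the arrays labelled knockout. The groups did not overlap, but control 1 and knockout 2 nearly touched. The difference was 0.17 ± 0.11 (adjusted p = 0.561), or 1.12-fold, and remained positive in 15 of 15 alternative fits. A second probe set, 1424480_s_at, differed by -0.045 ± 0.11, and by 0.0085 after median centring, and the dim 1455703_at differed by 0.21 ± 0.12 (adjusted p = 0.520).

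Foxo1, the transcription factor gene downstream of AKT, had lower means in the arrays labelled knockout on all 4 of its probe sets. On 1416983_s_at it read 10.80, 10.54 and 10.60 in control arrays 1 to 3, against 9.94, 10.20 and 10.55 in the 3 arrays labelled knockout. Knockout 3 lay among the controls, so the groups overlapped, and the spread within the arrays labelled knockout was wide. The means were 10.65 ± 0.13 and 10.23 ± 0.31 (SD, n = 3), which is a difference of -0.42 ± 0.17 (SE) or 0.749 times the control level, with an unadjusted p of 0.0484 and an adjusted p = 0.382. It was -0.27 without knockout 1 (adjusted p = 0.689) and -0.58 without knockout 3 (adjusted p = 0.254). With the acinar marker mean in the model it was larger, -0.66 ± 0.20 (adjusted p = 0.376).

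On 1416982_at the groups did not overlap: controls read 8.44, 7.93 and 7.98, and the arrays labelled knockout read 7.73, 7.76 and 7.90, a difference of -0.32 ± 0.16 (adjusted p = 0.465). On 1416981_at the difference was -0.31 ± 0.17 (adjusted p = 0.509). These 3 probe sets are annotated to the same sequence record, and knockout 1 was the lowest and knockout 3 the highest of its group in each. The fourth, 1456529_at, came from another record and differed by -0.057 ± 0.11 (adjusted p = 0.887), with a 95% interval from -0.33 to 0.21. Its arrays labelled knockout stood in the same order, at 6.45, 6.54 and 6.72.

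**Figure D3:**
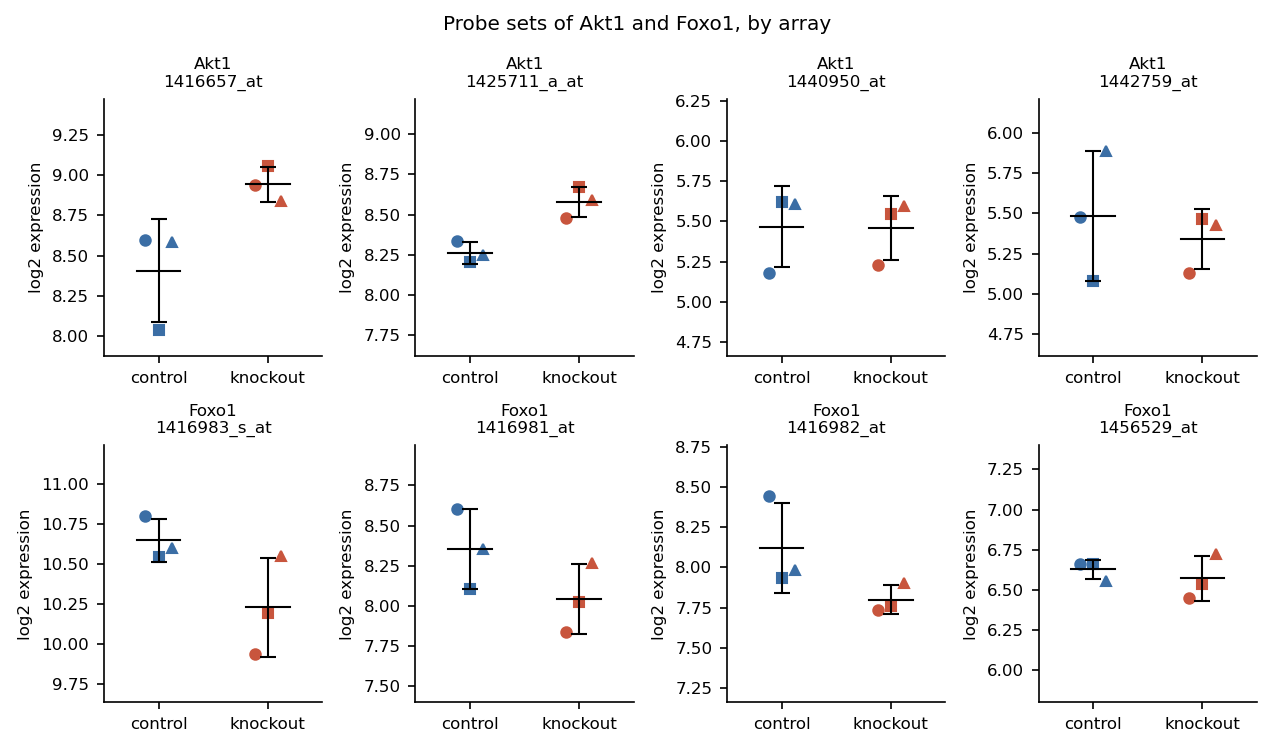
Log2 expression of each probe set of Akt1 (top) and Foxo1 (bottom) by array, with means and SD bars (n = 3); blue marks are controls, red marks are arrays labelled knockout, circles, squares and triangles are arrays 1, 2 and 3, and every panel spans 1.6 log2 units. The first 2 Akt1 panels separate the groups and the last 2 do not; for Foxo1 the mean of the arrays labelled knockout is lower in all 4 panels but only 1416982_at has no overlap.

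Grb10, an imprinted gene whose product inhibits the insulin and IGF1 receptors, had the smallest difference of the 9 genes on the brightest probe set of each. On 1425458_a_at it read 10.79, 10.95 and 10.57 in controls and 10.79, 10.75 and 10.71 in the arrays labelled knockout. The controls lay on both sides of the arrays labelled knockout, which were close together. The difference was -0.018 ± 0.13 (adjusted p = 0.972, 0.035 after median centring), with a 95% interval from -0.32 to 0.28. Its other probe sets differed by -0.088 ± 0.15 and, on 1430164_a_at, by -0.16 ± 0.16. The latter was -0.024 without control 1, -0.42 with the acinar marker mean in the model (adjusted p = 0.498) and -0.44 with control 1 as the sole control (adjusted p = 0.407).

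**Figure D4:**
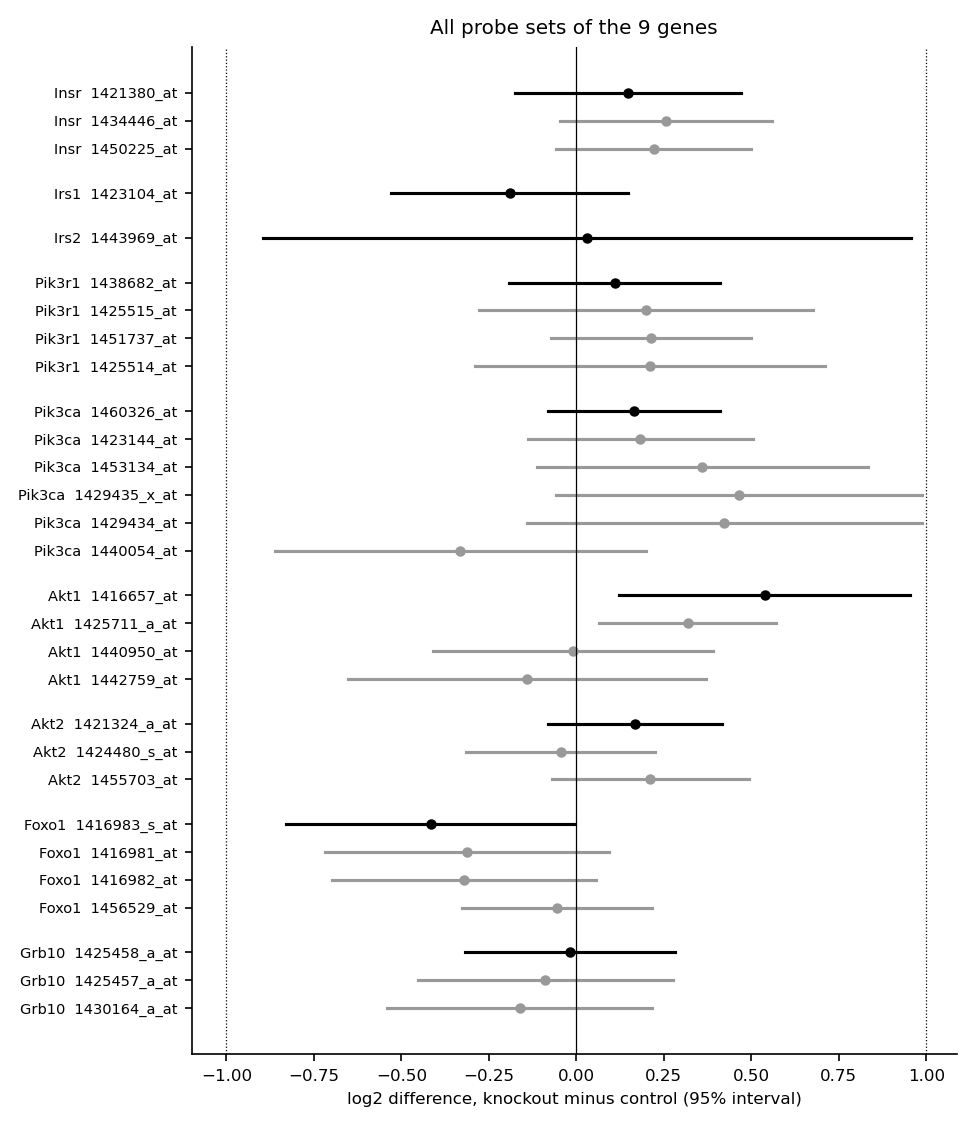
Log2 difference (arrays labelled knockout minus control) of all 29 probe sets with its 95% interval; black marks the probe set with the highest mean of each gene, grey the others, and dotted lines a 2-fold change. All intervals lie between the dotted lines, and only 3 (Akt1 1416657_at and 1425711_a_at, Foxo1 1416983_s_at) leave out 0, before adjustment for multiple tests.

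By a fixed rule, the genes most like Akt1 and Foxo1 were sought among all genes by the root mean square difference of mean-centred log2 values over the 6 arrays. Those nearest to Akt1 were Cyp1b1 (0.060), a cytochrome gene, dim in these arrays, Carmil1 (0.069), a regulator of actin capping, and Spata6 (0.077). They differed between groups by 0.51, 0.52 and 0.60 (adjusted p = 0.282, 0.301 and 0.193). Those nearest to Foxo1 were Top1mt (0.064), the mitochondrial topoisomerase gene, Ccdc30 (0.066) and the angiotensinogen gene Agt (0.076), with differences of -0.37, -0.43 and -0.42 (adjusted p = 0.364, 0.361 and 0.373). Other probe sets of the same genes did not all follow. Those of Cyp1b1 differed by -0.084 and 0.17, those of Spata6 by 0.29, 0.80 and 0.14, and those of Ccdc30, all dimmer, by -0.33 to 0.27. The nearest genes were matched on 1 probe set each, were taken from 16308 genes over 6 arrays and describe the pattern only.

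The wider pathway was taken from a list of 83 further genes of insulin and PI3K-AKT signalling, of which 76 were measured by a probe set that names no other gene. The remaining 7 were not analysed here. On the probe set with the highest mean of each gene, limma called 0 of 76, against 1.10% of all 18193 genes, and 9 had an unadjusted p under 0.05, against 14.0% of all genes. Higher means in the arrays labelled knockout were found for 51 and lower means for 25, with a median difference of 0.073 against 0.0020 over all genes. In 15 of 76 the groups did not overlap, against 21.2% of all genes. Counting every probe set of these 76 genes, 1 of 178 was called, or 0.562%, against 0.897% of all probe sets.

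Of 20 receptor and adaptor genes 12 had higher and 8 lower means (median difference 0.042). The largest difference of the pathway list belonged to Insrr, the insulin receptor-related receptor, an orphan relative of the insulin receptor that senses alkaline pH. It read 8.19, 7.32 and 7.37 in control arrays 1 to 3, against 6.22, 6.15 and 6.29 in the 3 arrays labelled knockout. The groups lay far apart, with the arrays labelled knockout close together and control 1 above the other controls. The difference was -1.41 ± 0.24 (SE), or 0.377 times the control level, and it missed the threshold with an adjusted p = 0.0561. It passed in 7 of the 15 alternative fits, among them the fit without control 1 (-1.12 ± 0.11, adjusted p = 0.0116), and did not pass in the other 8, where the adjusted p lay between 0.0523 and 0.211. With the acinar marker mean in the model it was -1.82 ± 0.22 (adjusted p = 0.0523).

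Gab1, a docking protein gene that recruits PI3K, differed by -0.44 ± 0.11 (adjusted p = 0.178), and all 3 of its probe sets had lower means. Igf1r, the receptor of insulin-like growth factors, read 11.60, 11.52 and 11.30 in controls and 11.77, 11.81 and 11.72 in the arrays labelled knockout, a difference of 0.29 ± 0.12 (adjusted p = 0.364). Its groups did not overlap on that probe set, and all 5 Igf1r probe sets had higher means.

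Among 12 PI3K subunit genes 10 had higher means, with a median difference of 0.22. Pik3c3, which encodes the class III enzyme that works in autophagy and endosome traffic, read 8.27, 8.07 and 8.31 in controls and 8.84, 9.05 and 8.71 in the arrays labelled knockout. The groups were clearly apart, with a difference of 0.65 ± 0.13 (adjusted p = 0.0957) that passed in 2 of 15 alternative fits.

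Of 24 genes for AKT, its activators and its substrates 18 had higher means (median 0.066). Tbc1d4, an AKT substrate that restrains glucose transporter traffic, gave the only call of the pathway list, on a probe set that does not stand for the gene. On 1435292_at it read 4.70, 4.47 and 4.55 in controls and 5.45, 5.69 and 5.58 in the arrays labelled knockout, and rose by 0.999 ± 0.12 (SE, adjusted p = 0.0167). That probe set is dim. The brighter 1455903_at differed by 0.70 ± 0.20 (adjusted p = 0.217), with groups that did not overlap either. The call was lost without control 2 (adjusted p = 0.0605), control 3 (0.0930), knockout 1 (0.0572), knockout 2 (0.0850) or knockout 3 (0.0753), with the acinar marker mean in the model (0.85 ± 0.14, adjusted p = 0.126) and with control 1 as the sole control (0.87, adjusted p = 0.172). Tbc1d1, its close relative, differed by 0.35 ± 0.15 (adjusted p = 0.385), and Prr5, a subunit gene of the second mTOR complex, by 0.48 ± 0.21 (adjusted p = 0.405). Prr5 was dim, with a mean of 3.98, and its groups overlapped.

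Of 20 inhibitor genes 11 had higher and 9 lower means (median 0.11). Ptpra, a receptor-type tyrosine phosphatase gene, differed by 0.42 ± 0.13 on 1 probe set (adjusted p = 0.248) and by -0.12 on the other. Deptor, an inhibitor of mTOR, read 11.27, 11.06 and 11.06 in controls and 11.52, 11.45 and 11.43 in the arrays labelled knockout. Its difference was 0.34 ± 0.11 (adjusted p = 0.273), and its 6 probe sets all had higher means, with adjusted p down to 0.108. The stress-induced mTOR inhibitor gene Ddit4 differed by 0.43 ± 0.17 (adjusted p = 0.358), and the pseudokinase genes Trib1 and Trib3 by 0.24 ± 0.11 and 0.27 ± 0.12 (adjusted p = 0.405 each). The second probe set of Trib1 differed by 0.0022 and that of Trib3 by 0.40.

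**Figure D5:**
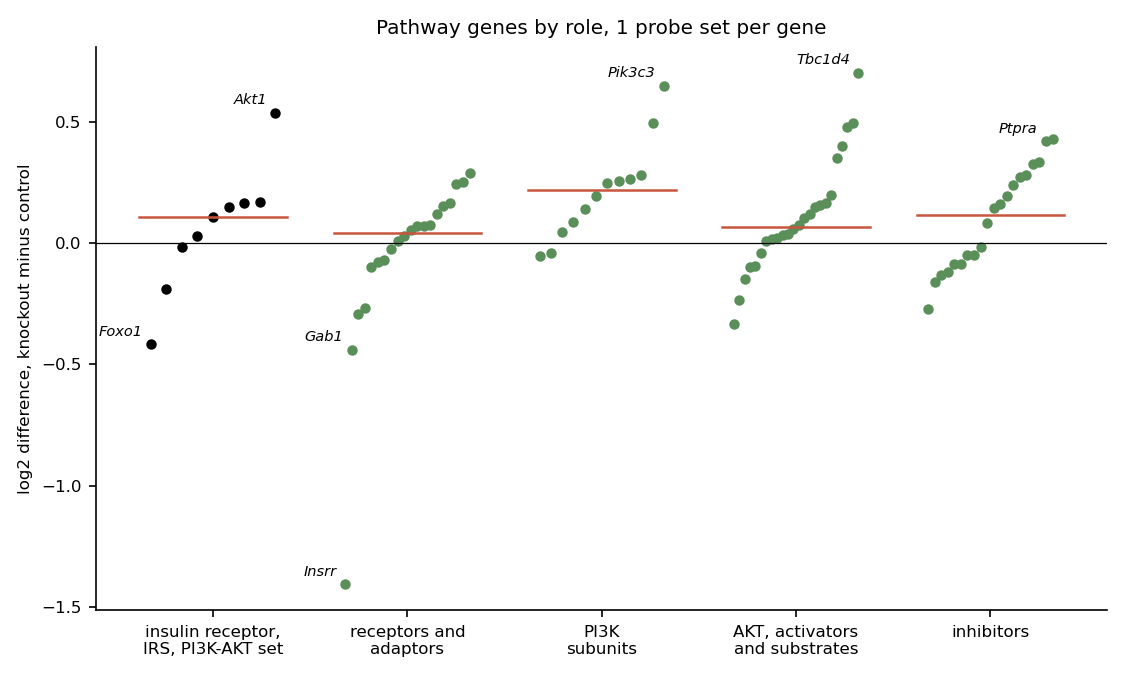
Log2 difference (arrays labelled knockout minus control) of the 9 genes (black) and of 76 other pathway genes (green) by role, 1 probe set per gene, sorted within each role; red lines are medians. Most points lie within 0.5 of 0, Insrr stands alone at -1.41, and no gene of the plot passed the test.

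Genes known as FOXO targets were described beside Foxo1. Of 30 measured, 0 passed with limma, 12 had an unadjusted p under 0.05 against 14.0% of all genes, and in 10 the groups did not overlap, against 21.2%. Their directions were mixed: 12 had higher and 18 lower means, with a median difference of -0.059. The list did not separate targets that FOXO factors activate from targets they repress, so these directions give no reading of FOXO activity. Klf15, a transcription factor gene of fasting metabolism, differed by -0.94 ± 0.20 (adjusted p = 0.109). Cdkn1b, a cell cycle inhibitor gene, read 10.16, 9.78 and 10.01 in controls and 9.32, 9.47 and 9.41 in the arrays labelled knockout, a difference of -0.58 ± 0.13 (adjusted p = 0.120), and its second probe set differed by -0.44. Gabarapl1, an autophagy gene, differed the other way, by 0.41 ± 0.11 (adjusted p = 0.181), with its second probe set at 0.53.

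Imprinted genes were described beside Grb10. Of 30 measured, 1 fell, 0 rose and 29 did not pass, against 1.10% of all genes called. An unadjusted p under 0.05 was found for 11, against 14.0% of all genes, and in 15 the groups did not overlap, against 21.2% of all genes. The median difference was -0.14, with 20 lower and 10 higher means. Igf2, the growth factor gene next to the insulin gene, fell by 0.96 (SE 0.13, adjusted p = 0.0289) in log2 units, from 6.38, 6.00 and 6.13 in controls to 5.18, 5.14 and 5.32 in the arrays labelled knockout. Its second, dimmer probe set differed by -1.58 ± 0.29 (adjusted p = 0.0684). The call was kept without control 1 or control 2 and lost without control 3 (adjusted p = 0.121), knockout 1 (0.138), knockout 2 (0.134) or knockout 3 (0.0828), and it was also lost with the acinar marker mean in the model (-1.12, adjusted p = 0.0801) and with control 1 as the sole control (-1.17, adjusted p = 0.105). Igf2r, the receptor that clears that growth factor, differed by 0.53 ± 0.10 (adjusted p = 0.0904), and Usp29 by -0.70 ± 0.12 (adjusted p = 0.0633). The second probe set of Igf2r differed by 0.37, and that of Usp29 by only -0.19 (adjusted p = 0.810), with overlapping groups.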

How the data were processed

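The deposited table holds log2 expression values per probe set, 1 column per array. The authors made these log2 values with RMA (background correction, quantile normalization across arrays, probe set summary), per the submitters' processing notes, which give no version. RMA tends to compress differences of dim probe sets and gives no detection call. The genome build is not given in the sources used here. The table has 45101 probe sets; 64 manufacturer controls were left out. Gene names came from the platform annotation (34945 probe sets with 1 symbol, 932 with several, 9160 unnamed), and the probe set with the highest mean over 6 arrays stood for each of 18193 genes. The comparison used limma 3.58.1 under R 4.3.3, with linear fits by group and moderated two-sided tests, checked on simulated data. The number of arrays, 3 per group, limits precision.

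Named genes were all 9 members, pathway genes past adjusted p 0.05 plus the 12 with the smallest p, the 3 with the smallest p of the FOXO, CREB and imprinted lists with any past the threshold, and the 3 nearest patterns of 2 members. Members and lists were chosen with earlier results of these data known. Alternatives left out each array, used a replicate block, other scalings, a filter at log2 of 4, trend and robust variance, other probe set rules, acinar RNA as covariate, or control 1 alone.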

Additional observations from a re-analysis of the deposited data

How the results depend on the processing

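The count of calls over all 45037 probe sets was 404 and moved with the setting: between 152 and 783 with 1 array left out, 246 with the replicate block, 903 with trend and robust variance, 128 with the acinar covariate and 54 with control 1 alone, while the count among the members was 0 in every setting (of 29 probe sets in 13, of 9 genes in the other 2). Calls among pathway genes, 0 of 76, ranged from 0 to 1 with 1 array left out and were 1 after quantile normalization again, 1 with the filter at log2 of 4, 2 with trend and robust variance, 1 with 1 probe set per gene, 1 with control 1 alone and 3 with all probe sets of a gene averaged (a setting chosen after seeing the data). Calls among FOXO targets were 2 with trend and robust variance. The count of calls among imprinted genes, 1 of 30, ranged from 0 to 1 with 1 array left out (the call without knockout 3 was a different gene, which rose) and became 0 with the replicate block, 2 after quantile normalization again, 3 with trend and robust variance, 2 with 1 probe set per gene, 0 with the acinar covariate and 0 with control 1 alone. The replicate numbers were not shown to pair animals: deviations of same-numbered arrays correlated at -0.054, 0.14 and 0.0045, and only number 2 matched its own best. The block ended the calls of Igf2 (adjusted p = 0.0757) and Tbc1d4 1435292_at (adjusted p = 0.0757) and made no call among the members.

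Differences that changed sign were all uncalled. With 1 array left out, Irs2 ranged from -0.36 to 0.36, Akt1 1440950_at from -0.15 to 0.11, Akt1 1442759_at from -0.34 to 0.061, Foxo1 1456529_at from -0.13 to 0.0027, Grb10 1425458_a_at from -0.12 to 0.072 and Grb10 1425457_a_at from -0.18 to 0.041. After median centring, Akt1 1440950_at was 0.044, Akt2 1424480_s_at was 0.0085 and Grb10 1425458_a_at was 0.035. After quantile normalization again, Irs2 was -0.011 and Akt1 1440950_at was 0.033. With the acinar covariate, Irs2 was -0.23, Akt1 1440950_at was 0.095, and Pik3r1 was -0.036 on 1438682_at, -0.12 on 1425515_at and -0.034 on 1425514_at. With control 1 alone, Irs2 was -0.083, Pik3r1 was -0.0091, -0.087 and -0.12 on those 3 probe sets, Pik3ca was -0.0024 on 1453134_at, -0.096 on 1429434_at and 0.17 on 1440054_at, Akt1 1440950_at was 0.28 and Grb10 1425457_a_at was 0.094. The causes were not tested. Median centring moved the median difference of all probe sets from -0.017 to 0.036.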
